A study of Mus musculus with 18 samples.

Results

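Apolipoproteins and the proteins that load, process and take up lipoproteins were followed in mouse liver as 10 listed genes: the apolipoproteins Apoa1, Apoa4, Apoa5, Apob, Apoc2, Apoc3 and Apoe, the lipid loading protein Mttp, the hepatic lipase Lipc and the receptor Vldlr. The members were found by gene symbol, current or former, among the annotated probes of an Illumina MouseRef-8 v2 beadchip, on which each transcript is read as the brightness of short probes. A probe was kept where its detection p, the share of negative control beads at least as bright, was under 0.05 in at least 2 of the 18 libraries. The brightest kept probe then stood for the gene. By this rule 8 of the 10 members were measured, among 8950 genes in all, while Apob and Lipc had no annotated probe and were not analysed here. The 8 chosen probes were detected in 18 of 18 libraries. Of the 13 probes annotated to members, 11 were kept, and the other 2, both of Vldlr, were detected in 0 libraries.

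Each library was the liver RNA of 1 mouse. The mice were fed a 40% calorie-restricted (CR) or an ad libitum (AL) diet and carried 0, 1 or 2 working alleles of Sirt1, a protein deacetylase gene. On CR there were 3 SIRT1-/- mice, 3 SIRT1+/- mice and 3 SIRT1+/+ mice. On AL there were 4 SIRT1-/- mice, 2 SIRT1+/- mice and 3 SIRT1+/+ mice. All shared the strain label C57BL/6J, were caged singly, went on their diets at 2 to 5 months and were sampled at 13 to 16 months of age. The study's supplementary methods instead give a starting age of 3 to 5 months. The AL mice ate NIH-31 chow and the CR mice its NIA-fortified form, so the amount of food and its formula cannot be told apart. The Sirt1 alleles were missing from the whole animal, not from the liver alone.

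Liver secretes most of the lipoproteins of the blood. Microsomal triglyceride transfer protein, encoded by Mttp, loads lipid onto apolipoprotein B to form very low density lipoprotein, and apolipoprotein A-I, from Apoa1, is the main protein of high density lipoprotein. On circulating particles apolipoproteins C-II and A-V favour the breakdown of triglyceride by lipoprotein lipase, apolipoprotein C-III slows it, and apolipoprotein E is the ligand by which remnants are taken up. The very low density lipoprotein receptor, from Vldlr, binds particles that carry apolipoprotein E and is known to be scarcer in liver than in heart, muscle and fat.

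Array intensities ran from a median of 57.4 to 86.6 per array up to a highest value of 29307 to 44434, and 10726 to 11386 probes were detected per library. The labels call all 18 mice male, but 7 libraries had no Y-linked transcript at a detection p under 0.01 and had Xist, the RNA that coats an inactive X chromosome, at signals of 416 to 839, against 55.2 to 74.1 in the other 11. The study's methods, unlike the labels, list both male and female mice for the arrays, and these 7 libraries read as female. Of those 7 libraries 5 were CR (2 SIRT1-/-, 1 SIRT1+/- and 2 SIRT1+/+) and 2 were AL SIRT1-/-, so diet and genotype comparisons are not balanced for them, and calls that were lost without them are named. A further doubt concerns the library labelled AL SIRT1-/- replicate 1: group averages tabulated by the study are met from these libraries far more often when it is counted as SIRT1+/- than as labelled. The label was kept, and calls that turn on this library are given without it. The Sirt1 probe averaged 1.35 ± 0.385 in CR SIRT1-/- livers, against 1.51 ± 0.46 in CR SIRT1+/+ livers (SD, n = 3 each), in scaled log2 signal, the unit explained next. It averaged 1.04 ± 0.167 (n = 4) in AL SIRT1-/- livers and 1.14 ± 0.0548 (n = 3) in AL SIRT1+/+ livers. The SIRT1+/- livers were at 1.23 ± 0.12 (n = 3) on CR and 0.911 ± 0.0664 (n = 2) on AL, below the SIRT1-/- means. Whether this probe lies in the deleted stretch is not known here, so it checks no genotype label. Of 5 hepatocyte markers, Alb, Ttr, Cps1 and Apoh passed the detection filter and Tat did not. The Alb probe was close to the array medians, at 62.0 to 128, and was detected in 14 of 18 libraries. Apoh was detected in 17, at 62.5 to 6464 over all libraries. None of the 4 lymphocyte markers passed the detection filter. The summed intensity of the 6 acute phase markers was 27400 to 37463 in CR libraries and reached 105313 in AL libraries, with medians of 32581 and 30305. For the 4 detected stellate markers it was 8269 to 17294 on CR and 6475 to 12485 on AL. For the 4 detected Kupffer cell markers it was 1482 to 3188 on CR and 1155 to 4662 on AL. The part of these in the differences below was not tested.

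Values below are scaled log2 signals: the log2 intensity of each array, centred on that array's mean and brought to a common spread, so that 0 is the mean of all probes and a difference of 1 is about a doubling. All differences come from 1 limma fit of the 6 group means across the 8950 genes. A gene was called where the two-sided p, adjusted by Benjamini-Hochberg over all of these genes, was under 0.05. Nothing in the labels says whether the mice of a group came from separate litters, so p-values measure the spread between these mice.

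The promoters of the pair of members on which the results turn, Vldlr and Apoc2, are shown first, to place the genes and the bases upstream of them. The stretch before the annotated Vldlr gene lies at chr19:27216234-27216479 on the plus strand (RefSeq, GRCm38.p6), and capitals mark the 20 bases next to the gene. The stretch before Apoc2 lies at chr7:19677942-19678083 on the minus strand and is the whole interval of 142 bases between Apoc2 and its neighbour Apoc4, with capitals on the match to AGGTCA, a half-site bound by nuclear receptors.
Vldlr: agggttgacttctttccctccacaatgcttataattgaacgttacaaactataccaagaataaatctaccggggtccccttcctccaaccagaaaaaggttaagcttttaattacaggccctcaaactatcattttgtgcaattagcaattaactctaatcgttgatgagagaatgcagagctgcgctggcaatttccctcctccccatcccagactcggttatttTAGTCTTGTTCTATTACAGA
Apoc2: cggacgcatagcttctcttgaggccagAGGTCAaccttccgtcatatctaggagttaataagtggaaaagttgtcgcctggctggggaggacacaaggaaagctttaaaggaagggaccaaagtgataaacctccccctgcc

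The match in the Apoc2 interval begins 115 bases before the gene. Searched on both strands in the 250 bases before each annotated start, AGGTCA was present in 14% of 32851 promoters, and among the members in those of Apoc2 and Lipc. The E-box CACGTG was present in 6.02% of promoters and, among members, in that of Apoa5, and TATAAA in 12.4% and in those of Apoa5, Apob and Apoe. None of these 3 motifs occurs in the printed Vldlr stretch, which says only that these letters are not in that window. Apoc3 had no window in the table used.

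Vldlr was the only member called for CR. Averaged over genotypes with equal weight, its signal was higher on CR by 1.21 on the log2 scale (standard error 0.30, limma adjusted p = 0.0221), and over all genotypes the intensities ran from 187 to 1931 in CR livers and from 128 to 462 in AL livers. In SIRT1-/- mice the scaled log2 signals were 2.09, 2.72 and 3.58 in CR livers, against 1.75, 2.07, 1.79 and 0.36 in AL livers. In SIRT1+/- mice they were 1.78, 2.62 and 0.95 in CR livers and 1.62 and 0.70 in AL livers. In SIRT1+/+ mice they were 2.51, 2.39 and 3.07 in CR livers, against 0.35, 0.75 and 1.74 in AL livers. With this probe every CR liver thus lay above every AL liver of its genotype in SIRT1-/- and SIRT1+/+ mice, while the SIRT1+/- ranges overlapped. In SIRT1-/- mice the margin was narrow, 2.09 against 2.07.

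**Figure D1:**
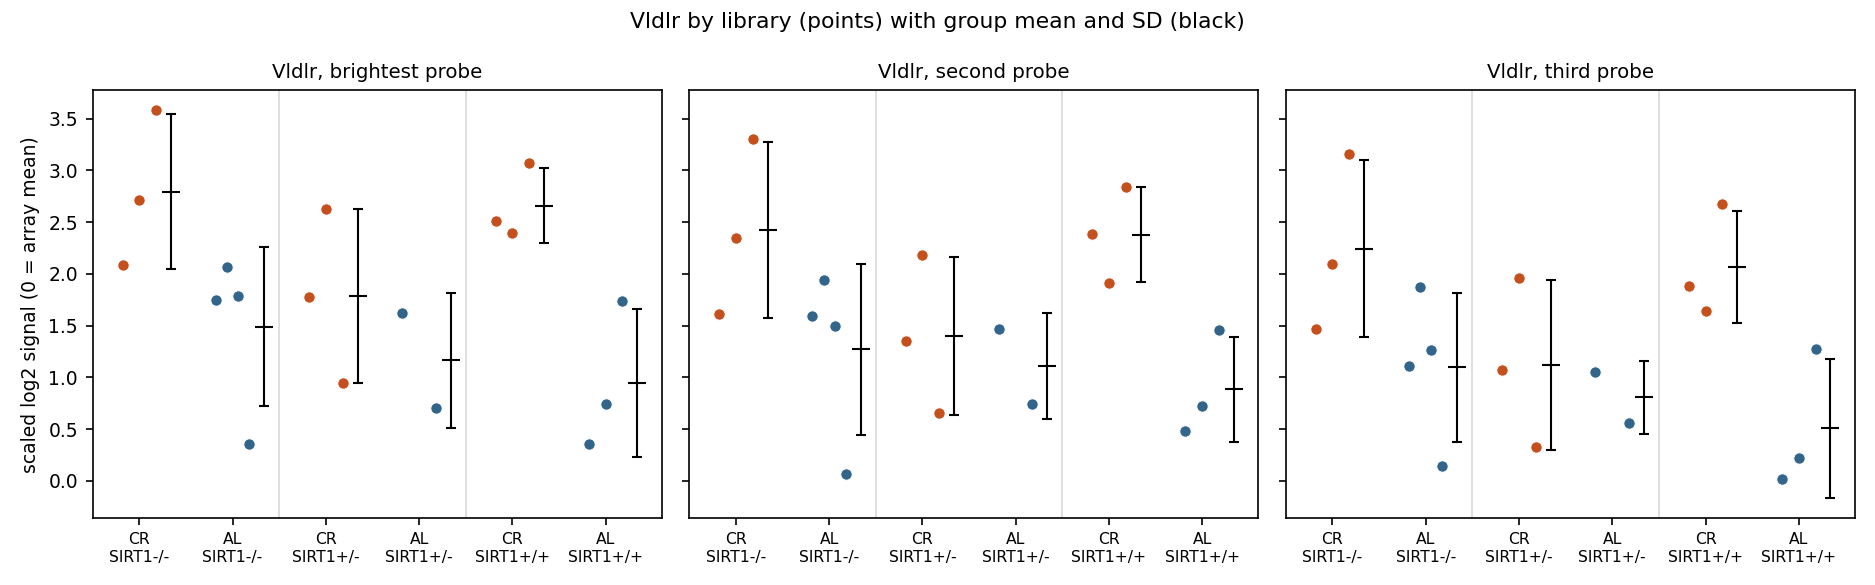
Scaled log2 signal of the 3 kept Vldlr probes (1 panel each) in every library, by diet and SIRT1 genotype. Points are mice, orange on CR and blue on AL, and black bars give the group mean and SD. With the brightest probe the CR SIRT1-/- livers run from 2.09 to 3.58 and the AL SIRT1-/- livers from 0.36 to 2.07.

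Within a genotype no member passed the threshold. The Vldlr difference was 1.30 (standard error 0.48, limma adjusted p = 0.225) in SIRT1-/-, 0.62 (0.58, 0.804) in SIRT1+/- and 1.71 (0.52, 0.137) in SIRT1+/+ mice, and few genes were called there: 0.145% of all genes tested in SIRT1-/-, 0.0223% in SIRT1+/- and 0.659% in SIRT1+/+ mice. The CR effect in SIRT1-/- minus that in SIRT1+/+ mice was -0.41 for Vldlr (standard error 0.71, limma adjusted p = 0.999), with a 95% interval of -1.91 to 1.09. That interval holds 0 and also differences as large as the averaged CR effect itself. At an unadjusted p under 0.05 there were 2 members in SIRT1-/- (Vldlr and Apoc2), 0 in SIRT1+/- and 2 in SIRT1+/+ mice (Vldlr and Mttp). Of all genes tested, 15% passed that p in SIRT1-/-, 8.34% in SIRT1+/- and 14.6% in SIRT1+/+ mice.

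The other kept Vldlr probes gave the same direction. Fitted among 12054 probes, they differed by 0.98 (standard error 0.30, limma adjusted p = 0.0501) and 1.01 (0.30, 0.0462) for the averaged CR effect, against 1.21 (0.30, 0.0218) for the brightest probe. Each of these probes also had its highest value in the CR SIRT1-/- replicate 3 liver. In SIRT1-/- mice, however, CR and AL livers overlapped with both of the other probes. The lowest CR and highest AL values were 1.61 and 1.94 for the probe at 0.98, and 1.47 and 1.87 for the probe at 1.01. In SIRT1+/+ mice CR and AL livers did not overlap with either.

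The Vldlr call depended on which libraries entered. With the mean Y-linked signal as a covariate the averaged difference was 0.90 (limma adjusted p = 0.0591), and over the 11 libraries with a Y-linked transcript, 4 CR and 7 AL, it was 0.89 (limma adjusted p = 0.298). Without the AL SIRT1+/- replicate 2 liver, one of the pair in that group, it was 1.06 (limma adjusted p = 0.0809), and without each other library in turn the call was kept. Of 5 markers of endothelial cells, 1 was called, Lyve1, which was higher on CR by 0.58 (standard error 0.16, limma adjusted p = 0.0334) but was detected in only 6 of 18 libraries. The others went both ways, with Pecam1 at 0.23, Stab2 at 0.14, Clec4g at -0.20 and Kdr at -0.23, the last with an unadjusted p of 0.0147. The summed intensity of the 5 endothelial markers was 4122 to 10704 in CR livers and 3678 to 7593 in AL livers. Its part in the Vldlr difference was not tested, and in whole liver more cells of a type and more RNA per cell cannot be told apart.

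Against all genes, the 8 members did not stand out. Of the 8, 1 was called for the averaged CR effect, where 10% of all genes tested were called. The members' median difference was 0.14, beside 0.03 over all genes, and 5 of the 8 were above 0. At an unadjusted p under 0.05 there were 4 members, Vldlr above 0 and Apoa1, Apoc3 and Apoe below 0, where 27.9% of all genes passed. Read by the brightest probe of each gene, CR and AL livers did not overlap for 1 of the 8 in SIRT1-/- mice (Vldlr, 12.8% of all genes). They did not overlap for 1 in SIRT1+/- mice (Apoa5, 30.5%) and 3 in SIRT1+/+ mice (Vldlr and Mttp higher and Apoe lower on CR, 20.4%).

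**Figure D2:**
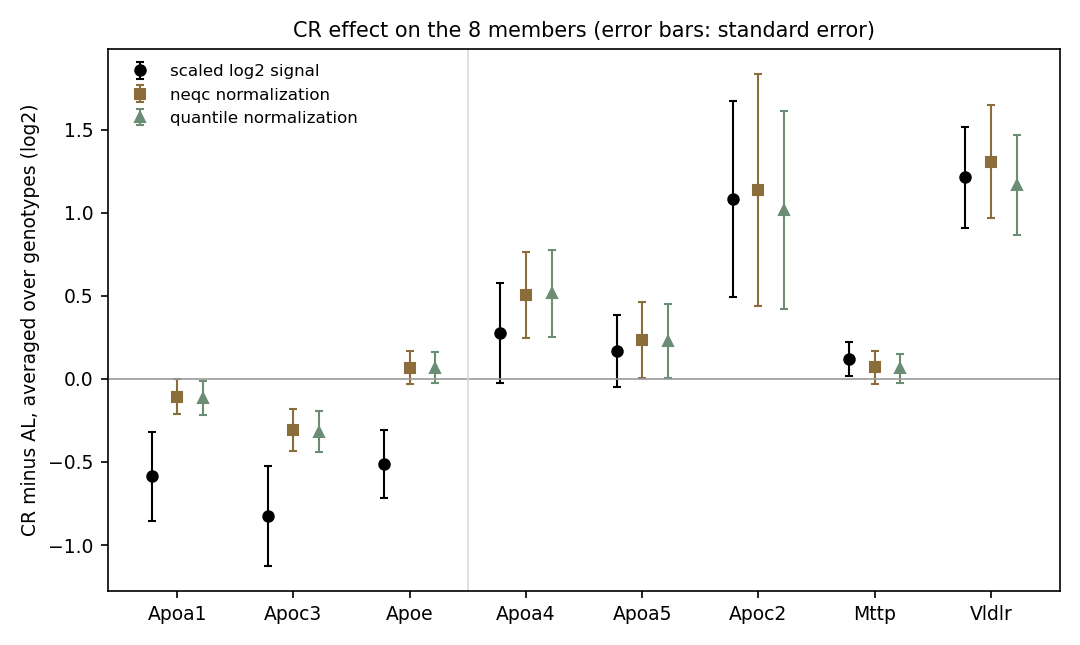
CR minus AL, averaged over genotypes, for the 8 members on the log2 scale, with standard errors, in scaled log2 signal (black circles), after neqc normalization (brown squares) and after quantile normalization (green triangles). Vldlr is at 1.21 in scaled log2 signal, 1.31 after neqc and 1.17 after quantile normalization, and Apoe is at -0.51 in scaled log2 signal and at 0.07 in both others.

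Apoa1, Apoc3 and Apoe, which encode the main high density lipoprotein protein, the inhibitor of triglyceride clearance and the remnant ligand, lay near the top of their arrays. A probe was taken as near saturation where it came within 1 scaled log2 unit of the brightest probe of its array. That held in 18 of 18 libraries for Apoa1 and Apoc3 and in 17 of 18 for Apoe, and Apoc3 was itself the brightest probe of the CR SIRT1-/- replicate 1 array.

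For Apoe, and for Apoa1 in raw intensity, the direction depended on the scale, while Apoc3, taken over all genotypes, was lower on CR on each scale used. Apoc3 had intensities of 24158 to 35086 in CR livers and 24818 to 36966 in AL livers, with means of 27468 ± 4212 and 29097 ± 3394 (SD, n = 9 each). In SIRT1+/+ mice alone its mean intensity was higher on CR, 27301 against 26378 (n = 3 each). In scaled log2 signal Apoc3 CR minus AL was -0.82 (standard error 0.30, limma adjusted p = 0.0916). Apoa1 had 21739 to 35251 in CR livers and 20449 to 29931 in AL livers, with a higher mean intensity on CR (27424 ± 4210, against 24793 ± 2857 on AL, SD, n = 9 each), yet a scaled difference of -0.59 (standard error 0.27, limma adjusted p = 0.17). Apoe had 15872 to 32095 in CR livers and 20025 to 26050 in AL livers, with a scaled difference of -0.51 (standard error 0.20, limma adjusted p = 0.116). The lowest Apoe intensity, 15872, came from the CR SIRT1+/+ replicate 1 liver, and the other 8 CR livers were at 23214 or above. The array spread moved with these values: the SD of log2 intensity over an array was 1.76 to 2.00 in CR libraries and 1.70 to 1.91 in AL libraries, and the scaled value divides by this SD. The summed intensity of the 4 detected hepatocyte markers, most of it from Ttr and Cps1, was 48675 to 68058 in CR libraries and 40529 to 48474 in AL libraries. In scaled log2 signal, however, the median difference of these markers was -0.20, with 1 of 4 above 0 and 0 called (1 at an unadjusted p under 0.05). The part of either in these differences was not tested. After neqc and quantile normalization, which match the arrays' distributions, Apoc3 was at -0.31 and -0.32, Apoa1 at -0.11 and -0.12 and Apoe at 0.07 in both, none of them called. With array weights, which give less weight to arrays that vary more, all of these were called in scaled signal: Apoc3 at -1.07 (limma adjusted p = 0.00663), Apoa1 at -0.81 (0.0143) and Apoe at -0.64 (0.0127). With the replicate number as a block Apoc3 (-0.91, limma adjusted p = 0.0452) and Apoe (-0.60, 0.0471) were called. Both settings called more of all 8950 genes too: 2136 with array weights and 1304 with the block, against 899 without either.

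**Figure D3:**
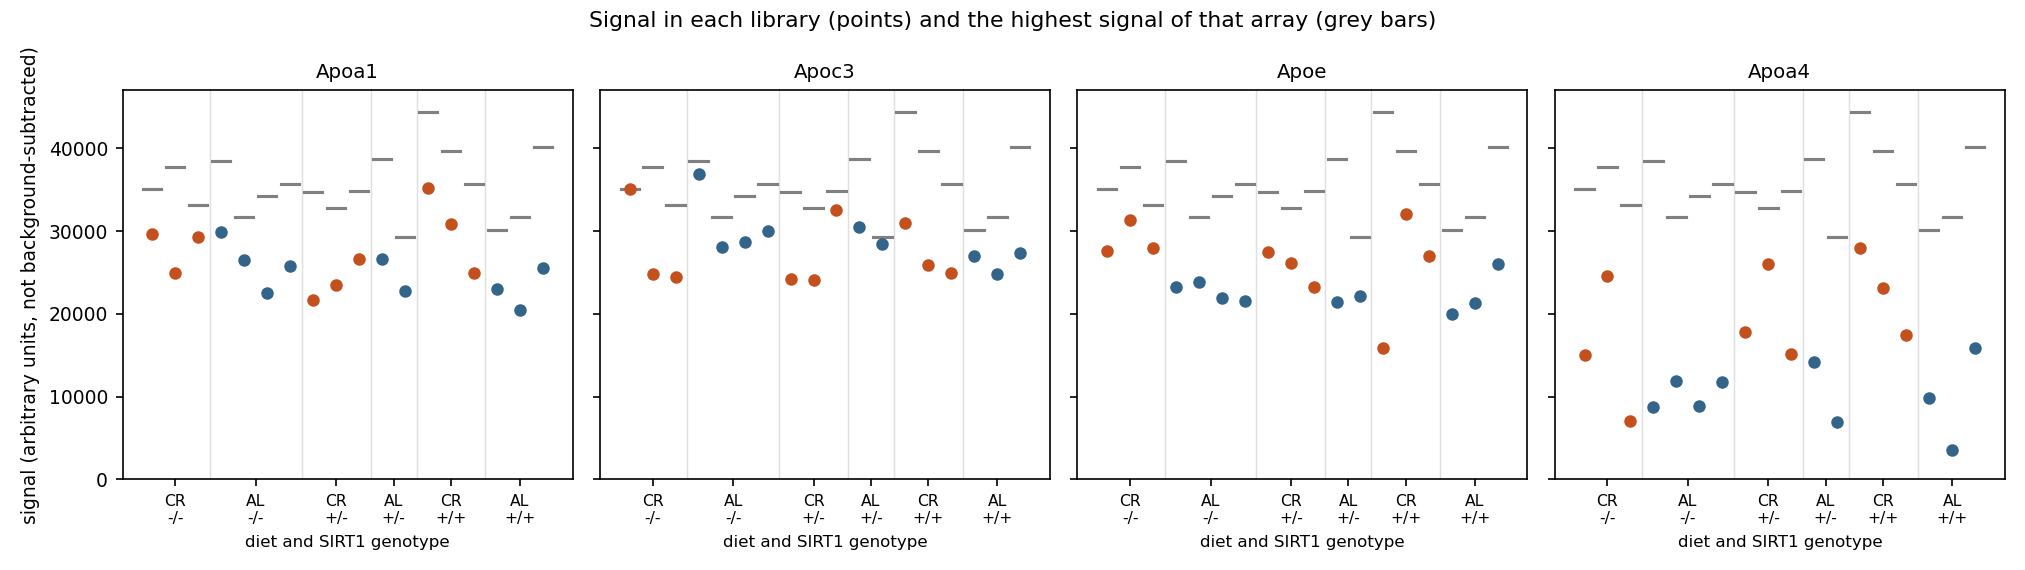
Intensity of Apoa1, Apoc3, Apoe and Apoa4 in each library (points, orange on CR, blue on AL), by diet and genotype, with the highest intensity of the same array as a grey bar. Apoc3 reaches the bar in 1 CR SIRT1-/- liver, and Apoa4 runs from 7057 to 27943 in CR livers and from 3602 to 15835 in AL livers.

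Apoa4, a further apolipoprotein of the same gene cluster on chromosome 9 as Apoa1, Apoc3 and Apoa5, had a mean intensity of 19346 ± 6646 in CR livers, against 10174 ± 3727 in AL livers (SD, n = 9 each). In SIRT1-/- mice it was 15053, 24583 and 7057 in CR livers, and 8777 to 11836 in AL livers. In SIRT1+/- mice it was 17855, 26029 and 15111 in CR livers and 14184 and 6924 in AL livers. In SIRT1+/+ mice it was 27943, 23084 and 17394 in CR livers, against 9800 or less in 2 of the 3 AL livers and 15835 in the third. In these unnormalized intensities the CR livers of SIRT1+/- and SIRT1+/+ mice did not overlap the AL livers of their genotype, but in scaled log2 signal they did: 6.98 to 7.57 in CR SIRT1+/- livers, against 6.54 to 7.39 on AL, and 6.37 to 7.99 in CR SIRT1+/+ livers, against 5.26 to 7.02 on AL. On the scaled log2 scale the averaged difference was 0.28 (standard error 0.30, limma adjusted p = 0.582, 95% interval -0.36 to 0.91), and 0.51 after both neqc (limma adjusted p = 0.209) and quantile normalization (0.207). Apoa4 came within 1 unit of the top of the array in 6 of 9 CR libraries and 0 of 9 AL libraries.

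Apoa5, whose protein promotes lipolysis of triglyceride-rich particles, was at 4.58 ± 0.41 in CR livers and 4.37 ± 0.55 in AL livers (SD, n = 9 each, scaled log2 signal). Its CR livers were tight within the SIRT1-/- (4.42 to 4.49) and SIRT1+/- groups (4.83 to 4.93), while the lowest values came from the CR SIRT1+/+ replicate 1 liver (3.70) and the AL SIRT1-/- replicate 4 liver (3.02). The averaged difference was 0.17 (standard error 0.22, limma adjusted p = 0.654, 95% interval -0.30 to 0.63).

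Mttp, the loading protein of very low density lipoprotein, varied little. It was at 2.29 ± 0.24 in CR livers and 2.14 ± 0.24 in AL livers (SD, n = 9 each), and the averaged difference was 0.12 (standard error 0.10, limma adjusted p = 0.482, 95% interval -0.10 to 0.34). In SIRT1+/+ mice the 3 CR livers had 2.44, 2.66 and 2.51 and the 3 AL livers 2.21, 1.87 and 2.34. That difference of 0.39 (standard error 0.18) had an unadjusted limma p of 0.0426 and an adjusted p of 0.326, and CR minus AL was 0.10 in SIRT1-/- and -0.14 in SIRT1+/- mice. On CR, Mttp was lower in SIRT1+/- than in SIRT1+/+ livers by an estimate of -0.38 (standard error 0.18, limma adjusted p = 0.913), which was not called.

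Apoc2, which encodes the cofactor of lipoprotein lipase, was read by 2 probes that disagreed. The brighter probe took either of 2 levels: in 7 libraries it lay between -0.34 and 0.04 in scaled log2 signal (intensities of 96.6 to 137), in the other 11 between 2.30 and 3.71 (495 to 1976), and in none between them. The 3 CR SIRT1-/- livers had 3.71, 2.34 and 2.85, all at the upper level, and of the 4 AL SIRT1-/- livers 1 had 2.49 and the others between -0.03 and 0.00. The 3 CR SIRT1+/- livers had 2.30, 2.86 and 3.55, and the AL SIRT1+/- livers 2.65 and 0.00. Of the 3 CR SIRT1+/+ livers replicates 1 and 2 had -0.34 and -0.21 and replicate 3 had 3.44, against 2.43, 0.04 and 2.49 in the AL SIRT1+/+ livers. Both levels thus occurred in 4 of the 6 groups.

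The dimmer Apoc2 probe lay between 0.31 and 1.53 in all 18 libraries and showed no such gap. Its averaged CR difference was 0.19 (standard error 0.14, limma adjusted p = 0.391), against 1.08 (0.59, 0.246) for the brighter probe, with both fitted among the 12054 probes. In SIRT1-/- mice, the library labelled AL SIRT1-/- replicate 1 included, CR minus AL was 2.35 (standard error 0.94, limma adjusted p = 0.25) with the brighter probe, and the CR effect in SIRT1-/- minus that in SIRT1+/+ mice was 3.04 (1.37, 0.911). With the dimmer probe these estimates were 0.24 and -0.19, and no Apoc2 difference was called with either. A predicted gene that joins Apoc2 and Apoc4 overlaps both in the RefSeq table, so signal from it and from Apoc2 may not be separable.

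**Figure D4:**
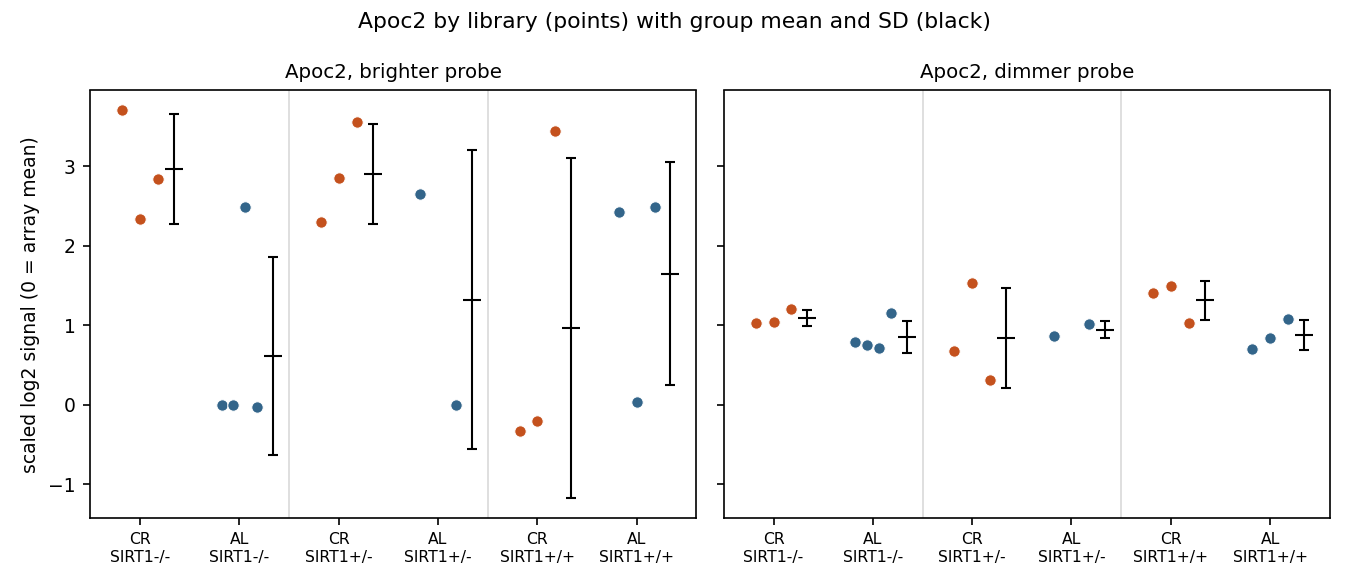
Scaled log2 signal of the 2 Apoc2 probes (1 panel each) in every library, by diet and genotype, with group mean and SD in black. The brighter probe sits either between -0.34 and 0.04 or between 2.30 and 3.71, and the dimmer one between 0.31 and 1.53.

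Among the genotype comparisons no member was called. Of all genes tested, 0.38% were called for SIRT1-/- minus SIRT1+/+ on AL, 0.246% for SIRT1-/- minus SIRT1+/- on AL and 0% for SIRT1+/- minus SIRT1+/+ on AL. On CR 0% were called for each of the 3 genotype comparisons. At an unadjusted limma p under 0.05 there was 1 member in these 6 comparisons, Mttp for SIRT1+/- minus SIRT1+/+ on CR. Of all genes, 4.47% passed that p in the same comparison, and 1.11% to 6.8% over the 6. The 8 members' differences for SIRT1-/- minus SIRT1+/+ ran from -1.04 to 0.55 on AL and from -0.65 to 2.00 on CR, and the extremes of -1.04 and 2.00 were those of the brighter Apoc2 probe. The CR effect differed between SIRT1-/- and SIRT1+/+ mice for 0.0223% of all genes, and 0% of genes were called for the differences that involve SIRT1+/- mice (limma, with 1, 0 and 0 members at an unadjusted p under 0.05, the 1 being Apoc2). Of all genes, 5.21% passed that p for SIRT1-/- against SIRT1+/+, 1.17% for SIRT1+/- against SIRT1+/+ and 3.13% for SIRT1-/- against SIRT1+/-. With groups of 2 to 4 mice the standard errors of members for a CR effect within 1 genotype ran from 0.166 (Mttp) to 1.12 (Apoc2).

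The wider pathway was read from 6 lists of 79 other genes with roles in lipoprotein metabolism, of which 62 were measured. Of these, 8 were called for the averaged CR effect, 3 higher and 5 lower, where 6.41% of all genes were called higher and 3.63% lower. Pltp, which moves phospholipid between lipoprotein particles, had the smallest p. It was at 1.17 ± 0.45 in CR livers, against 2.23 ± 0.79 in AL livers (SD, n = 9 each), a difference of -1.18 (standard error 0.17, limma adjusted p = 0.00169). In SIRT1+/+ mice Pltp was also called (-1.57, standard error 0.29, limma adjusted p = 0.0239), with 0.74 to 2.17 in CR livers and 2.82 to 3.13 in AL livers, which did not overlap. On AL it was lower in SIRT1-/- livers (1.01 to 1.98) than in SIRT1+/+ livers (2.82 to 3.13), by an estimate of -1.53 (standard error 0.27, limma adjusted p = 0.0196). These Pltp comparisons share the AL SIRT1+/+ livers, and neither call held without each of them: the limma adjusted p was 0.0615 to 0.104 for the CR effect and 0.0511 to 0.131 for SIRT1-/- minus SIRT1+/+ on AL when 1 AL SIRT1+/+ liver was left out. The CR effect in SIRT1+/+ mice was also not called without CR SIRT1+/+ replicate 1 (limma adjusted p = 0.0815) or 2 (0.064). In fits of the compared groups alone neither was called (limma adjusted p = 0.113 and 0.0687). Of these groups, 2 of 3 CR SIRT1+/+ and 2 of 4 AL SIRT1-/- libraries had no Y-linked transcript, against 0 of 3 AL SIRT1+/+ libraries, and both calls held with the Y-linked covariate. Without the doubted AL SIRT1-/- replicate 1 library, whose 1.01 was the lowest of its group, the AL difference was -1.37 (limma adjusted p = 0.0467).

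Of 10 measured genes for plasma lipases and lipid transfer, Pltp fell and Gpihbp1, the endothelial anchor of lipoprotein lipase, rose by 0.48 (standard error 0.12, limma adjusted p = 0.0183). The list's median difference was 0.05. Of 12 measured genes of lipoprotein assembly and secretion, Mia3, a receptor that loads large cargo into secretory vesicles, rose by 0.51 (standard error 0.12, limma adjusted p = 0.016). With the mean of its kept probes in place of the brightest, Mia3 was at 0.30 and not called (limma adjusted p = 0.0679). Sar1a, a GTPase of those vesicles (-0.32, standard error 0.07, limma adjusted p = 0.00938), and Pla2g12b, needed for triglyceride-rich particles in mice (-0.40, 0.10, 0.0229), fell. The list's median was -0.18. Tm6sf2, which takes part in lipidation of very low density lipoprotein, was not called for CR but was higher in AL SIRT1-/- livers (2.77 to 3.30) than in AL SIRT1+/+ livers (1.77 to 2.14), by 1.17 (standard error 0.22, limma adjusted p = 0.0288). That call was lost without AL SIRT1-/- replicate 1, 2 or 3 or without any 1 of the 3 AL SIRT1+/+ livers (limma adjusted p = 0.0569 to 0.196). In a fit of the compared groups alone the limma adjusted p was 0.0529. It was 1.11 (limma adjusted p = 0.0616) without the doubted AL SIRT1-/- replicate 1 library, 0.96 (0.0532) with the Y-linked covariate and 1.10 (0.109) over libraries with a Y-linked transcript.

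Of 9 genes listed with the other apolipoproteins, among them the editing enzyme gene Apobec1, Apof (-0.39, standard error 0.10, limma adjusted p = 0.0254) and Clu, or apolipoprotein J (-0.57, 0.13, 0.0158), fell in scaled log2 signal. Neither was called after neqc or quantile normalization (-0.17 for Apof and -0.26 for Clu in both). Clu came within 1 unit of the top of its array in 6 CR and 3 AL libraries. The list's median was -0.39. Of 18 transcription factors and cofactors of apolipoprotein genes, Ppargc1a, a coactivator induced by fasting, rose by 1.12 (standard error 0.20, limma adjusted p = 0.00407) and 0 fell, with a median of -0.08. It was at 2.90 ± 0.66 in CR livers and 1.90 ± 0.62 in AL livers (SD, n = 9 each). None of 8 lipoprotein receptors and their regulators other than Vldlr was called by limma (1 at an unadjusted p under 0.05) and none of 5 efflux transporters of cholesterol, phospholipid or bile salts (0 at that p), with medians of 0.05 and 0.17. Of the 8 calls, those of Pltp and Ppargc1a held over libraries with a Y-linked transcript, and those of Apof, Clu and Pla2g12b were lost with the Y-linked covariate too.

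**Figure D5:**
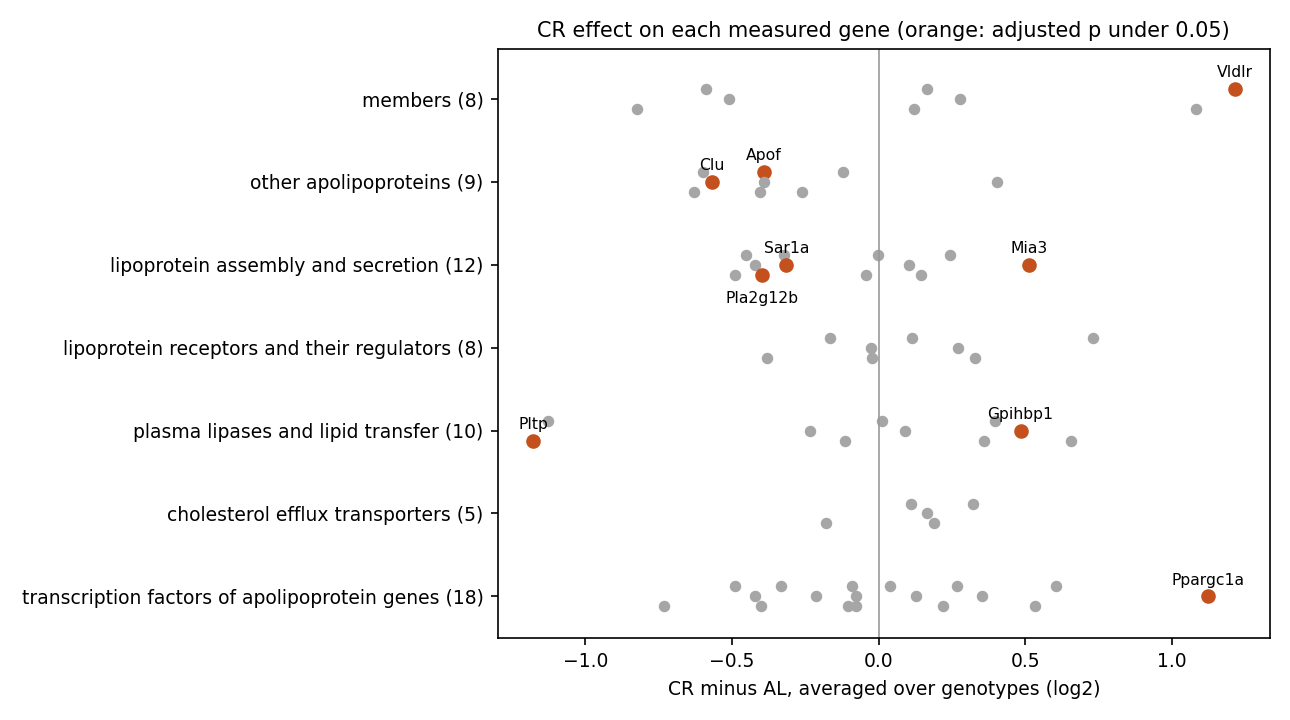
CR minus AL, averaged over genotypes, on the log2 scale for each measured gene, with the members in the top row and the 6 role lists under it. The number measured is in brackets, and orange marks genes with an adjusted p under 0.05. Vldlr at 1.21 and Ppargc1a at 1.12 are the highest of the called genes and Pltp at -1.18 the lowest.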

How the data were processed

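Total liver RNA of 18 mice was amplified, labelled with biotin and hybridized to Illumina MouseRef-8 v2 beadchips. Per the submitters' processing notes the scans were read with BeadStudio 3.4.0. For every probe in every library the authors deposited an intensity from which no background had been taken. A detection p-value was deposited beside it. The authors also deposited a score, the z-transformed log intensity, and recomputed z-scores matched it to within 5e-10. The genome build, chip and scan date are not given in the sources used here.

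The array has 25697 probes, of which the annotation gives 23978 a single gene symbol (16593 symbols) and leaves 1719 unnamed, which were left out. Z-scores were multiplied by the mean SD of log2 signal over arrays (1.84), and the 6 group means were fitted with limma 3.58.1 in R 4.3.3, with Benjamini-Hochberg adjustment over 8950 genes. The number of arrays limits the precision: the median standard error was 0.105 for the averaged CR effect. The fit was tested on simulated data. Tables and figures were made in Python 3.11.15 with pandas 2.3.3, numpy 2.4.6 and matplotlib 3.10.9.

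Samples were grouped from their labels alone, also the library labelled AL SIRT1-/- replicate 1, whose genotype is in doubt. The members and lists were chosen with earlier results of these data known. The text names all members and, from each role list, the genes called in any comparison. Lyve1, the Apoc2 levels and the genes set beside them were chosen after their values were seen. Alternatives were neqc (offset 16) or quantile normalization, a stricter detection limit (0.01) or none, averaging a gene's probes, fitting the compared groups alone, blocking on replicate number, adjusting for Y-linked signal, dropping libraries that lacked it, array weights and leaving out each library. The dimmer Apoc2 probe was added after seeing the data.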

Additional observations from a re-analysis of the deposited data

Results flagged for a closer look

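The brighter Apoc2 probe in the AL SIRT1-/- replicate 3 liver stood apart from the other 3 livers of its group: it was at 2.49 in scaled log2 signal and the nearest of the others at 0.00. The gap was 0.987 of the group's whole range, above Dixon's 95% critical value for 4 samples. This was 1 of 11 probes tested so in that group, the only one of 4 mice. Chance passes that value in about 1 of 20 cases where values are normally spread. The probe took 2 levels over the libraries, so that rate does not hold for it and the flag only restates the split. The dimmer Apoc2 probe was at 0.72 in the same liver, against 0.75 to 1.15 in the other 3. No CR effect on a member differed between genotypes past the threshold.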

How the results depend on the processing

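For the averaged CR effect 1 member was called. The count was 3 with the replicate number as a block (replicate block), 0 with the Y-linked covariate, 0 with only libraries with a Y-linked transcript and 4 with array weights, and 0 to 3 without each library in turn (0 when AL SIRT1+/- replicate 2 was dropped, 3 for AL SIRT1-/- replicate 4, 2 for CR SIRT1-/- replicate 1 and likewise for CR SIRT1+/- replicate 3). In SIRT1+/+ mice array weights called 1 member, Vldlr, and the count stayed at 0 for the other comparisons under all alternatives run. Whether the replicate numbers pair the mice is not stated in the labels. The deviations of same-numbered livers correlated at -0.18 to 0.29 over 40 pairs, and those of other-numbered livers at -0.36 to 0.36 over 94 pairs. These overlapping ranges cannot decide it. The block left the other counts of members at 0. The number of role-list genes called, 8, was 5 with the Y-linked covariate, 2 with the Y-linked libraries, 26 with array weights, and 5 and 13 without AL SIRT1+/- replicate 1 and AL SIRT1-/- replicate 4. Single libraries ended the averaged CR call of Apof (CR SIRT1-/- 2, CR SIRT1+/- 2, AL SIRT1+/- 2 and AL SIRT1+/+ 2), Pla2g12b (CR SIRT1-/- 2, CR SIRT1+/- 2, AL SIRT1+/- 1 and AL SIRT1+/+ 2), Clu and Gpihbp1 (AL SIRT1+/- 1 each) and Mia3 (AL SIRT1+/- 2), with limma adjusted p between 0.0502 and 0.0905. Without the doubted AL SIRT1-/- replicate 1 library 59 genes were called for CR in SIRT1-/- mice, against 13 with it, and 0 of them members. Over all genes, 899 were called, against 491 with the Y-linked covariate, 67 over the Y-linked libraries, 1304 with the replicate block, 2136 with array weights and 339 (AL SIRT1+/- replicate 1 left out) to 1319 (AL SIRT1-/- replicate 4 left out) without 1 library.

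Signs turned as follows, none of these estimates being called. Apoe on CR was 0.0665 with neqc and 0.0672 with quantile normalization. The dimmer Apoc2 probe gave -0.10 in SIRT1+/-, 0.44 in SIRT1+/+ and -0.19 for the CR effect in SIRT1-/- minus SIRT1+/+ mice. With the Y-linked covariate that last difference was 0.0367 for Vldlr. Mttp in SIRT1-/- mice was -0.0963 over the Y-linked libraries, and in SIRT1+/- mice it ran from -0.271 (AL replicate 2 left out) to 6.47e-05 (AL replicate 1 left out) when each library was left out. Apoa1, Apoc3 and Apoe were near the top of the array in at least 17 of 18 libraries, where differences may not be resolved.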

Other observations

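The split of the brighter Apoc2 probe was set beside all other kept probes, after its values had been seen. Of 12054 probes, 3 others had all 7 of the same libraries below all 11 of the rest: Clasrp and Tulp2, which like Apoc2 lie on chromosome 7, and Bcar1 on chromosome 8. The gap between the highest of the 7 and the lowest of the 11 was 2.26 in scaled log2 signal for Apoc2, 0.40 for Clasrp, 0.18 for Tulp2 and 0.06 for Bcar1. The 7 libraries were AL SIRT1-/- replicates 1, 2 and 4, CR SIRT1+/+ replicates 1 and 2, AL SIRT1+/- replicate 2 and AL SIRT1+/+ replicate 2. Of the 7, 2 had no Y-linked transcript, as had 5 of the 11. No cause was tested.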
